A study of Homo sapiens with 9 samples.

Results

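The proteasome is the large protease that degrades proteins tagged with ubiquitin. Its genes were read here through the places on their RNA where SF3B1 was found. The members were all protein-coding genes of RefSeq (GRCh38) whose symbol starts with PSM, a letter from A to G and a number. This gave 50 genes of 20037 protein-coding genes. They carried 557 of the 96852 SF3B1 binding sites in the list analysed, and no site was counted in more than 1 member. The rule used names only and no measured value. Core means the 19 PSMA and PSMB genes, and cap means the 21 genes whose symbol starts with PSMC or PSMD. One of these 21, PSMC3IP, encodes a recombination factor named after its binding to a subunit, and another member, PSME3IP1, is likewise a partner of a subunit. Both were kept by the rule and are described apart.

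The series used iCLIP, in which ultraviolet light joins a protein to the RNA it touches, the protein is pulled down with an antibody, and sequencing marks the joined nucleotides. The cells were K562, an established human leukaemia line, in 3 groups that were all crosslinked. SF3B1 was pulled down from 3 samples of genotype SF3B1 wt/wt and from 2 of genotype SF3B1 K700E/wt, all supplied by Horizon Discovery, and U2AF2 was pulled down from 4 samples of SF3B1 wt/wt cells supplied by ATCC. One list was used, which the labels tie to the 3 SF3B1 wt/wt samples. Its header speaks of sites reproduced by all replicates of either condition, so single sites are not assigned to a genotype below. The list merges its libraries, names positions of 5 nt and gives no reads, so the depth is unknown, and the values below have no replicate error. The 6 samples of the other groups are not analysed here. The labels give a chronic lymphoid leukaemia as the source of the cells, whereas K562 is known as a line from a chronic myeloid leukaemia. Among erythroid and K562 marker genes, TFRC held 121 sites, TAL1 held 17 and GATA1 held 6, whereas HBG1, HBG2 and KLF1 held 0. The B-lymphoid markers CD22, CD79A, CD79B, MS4A1, PAX5 and EBF1 each held 0.

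SF3B1 is a part of the U2 small nuclear ribonucleoprotein, which binds the branch point of an intron shortly before the 3′ splice site. In the proteasome, rings of alpha and beta subunits form the hollow core, and 3 of the beta subunits cut proteins. The cap sits on the ends of the core. Its ATPases unfold substrates and pull them in, and its other subunits bind ubiquitin chains and remove them. Proliferating cells need both parts in quantity, and blood cancers of plasma cells are treated with inhibitors of the core.

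For 2 members the RefSeq tables at hand contained the sequence under a site, because the start region of a non-coding RNA gene lies there. They are shown because they let the letters around SF3B1 contacts be read. The stretches are given in the direction of transcription, from GRCh38.p14, with the sites in capitals. The stretch of PSMB7, which encodes a cutting beta subunit, is chr9:124384606-124384730 on the minus strand, and that of PSMD3, a scaffold of the cap, is chr17:39994898-39995115 on the plus strand.
PSMB7: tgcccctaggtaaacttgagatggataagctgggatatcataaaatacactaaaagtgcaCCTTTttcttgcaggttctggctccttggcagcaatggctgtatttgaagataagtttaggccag
PSMD3: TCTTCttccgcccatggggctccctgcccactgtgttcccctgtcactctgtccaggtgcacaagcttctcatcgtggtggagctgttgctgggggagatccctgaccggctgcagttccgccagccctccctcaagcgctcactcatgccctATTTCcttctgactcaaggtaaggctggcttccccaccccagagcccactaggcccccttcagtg

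In PSMB7 the site occupied bases 61 to 65 of the stretch, counted from 1 at its 5′ end. It read CCTTT, and the letters CAGG, which occur where many introns end, started 7 bases after it. Of the 20 bases after the site, which run past CAGG, 14 were C or T. In PSMD3 the first site also was followed by 14 C or T among 20 bases, and CAGG started 49 bases after it. The second site of PSMD3 lay 153 nt further on, at bases 154 to 158. The letters GGTAAG, which occur where many introns begin, started 13 bases after it. Each stretch held CAGG once on the strand shown. On the other strand it occurred 3 times in PSMD3 and 0 times in PSMB7. GGTAAG occurred 1 time in the PSMD3 stretch and 0 times in the PSMB7 stretch, with 0 matches on the other strand of either. CAGG is common: of 34943 RefSeq start windows, 57.1% held it in their first 125 bases and 76.2% in their first 218 bases, the lengths of the stretches, on the strand as given. On either strand the shares were 79.5% and 92.7%. GGTAAG was less common, with 1.77% and 2.93% on the strand as given and 3.56% and 5.78% on either strand. Only 3 of the 557 sites could be read in this way, and no site of a member lay in the start window of that member itself, from 250 bases before to 50 after the start. These windows were at hand for 44 of the 50 genes.

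At least 1 site was listed in 42 of the 50 genes (84.0%), against 38.0% of all protein-coding genes. At least 5 sites were listed in 32 of the 50, against 23.1% of all, and at least 10 in 22, against 14.8%. The median was 7.5 sites per gene over the 50 and 0 over all protein-coding genes. Per length of gene, the 50 had a median of 0.534 sites per kb. Over genes with a site, the median was 0.737 sites per kb in the 42 members and 0.199 in the 7609 genes of the whole list. The members were shorter, with a median span of 13.6 kb against 24.1 kb for all protein-coding genes. Over genes with a site, the median spans were 13.6 kb and 36.1 kb. Sites per kb were lower in longer genes, and the members were closer to other genes of like length. Over genes with a site under 10 kb, the medians were 1.27 sites per kb in the members and 0.744 in all. From 10 kb to 30 kb they were 0.738 and 0.290, and at 30 kb and more 0.164 and 0.116. Transcript abundance was not measured in these files, so more RNA and more contacts per RNA cannot be told apart in any count below.

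**Figure D1:**
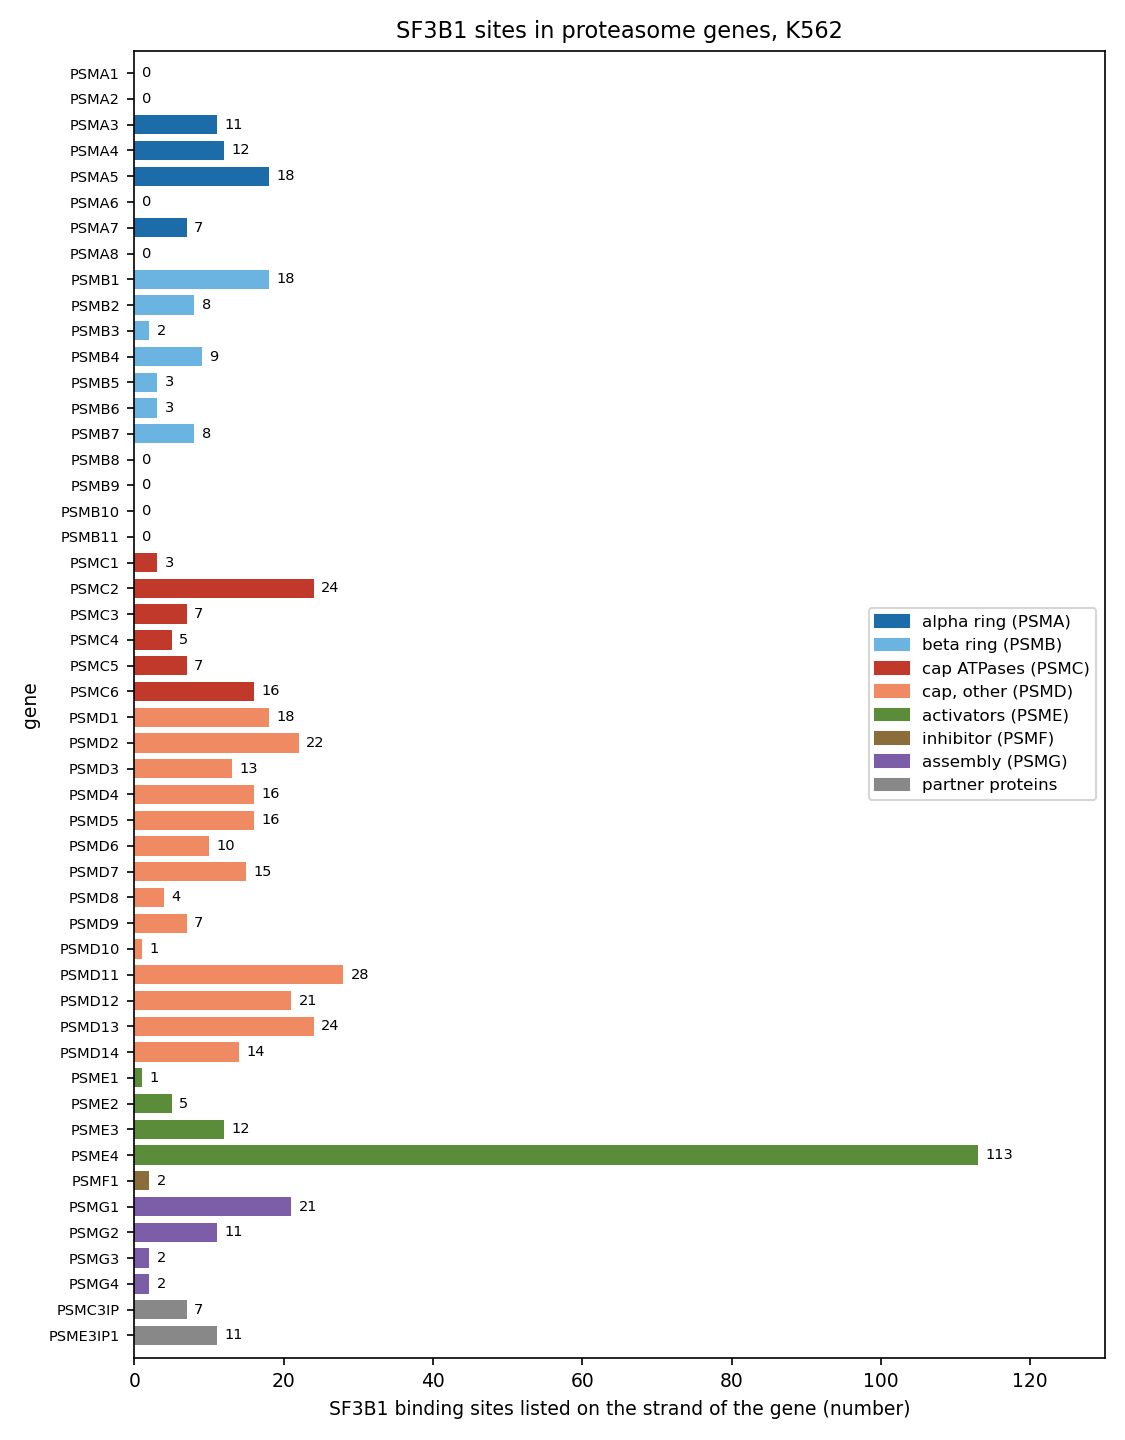
Number of SF3B1 binding sites listed on the strand of each of the 50 genes (horizontal axis, number of sites), ordered by role in the proteasome, with the number printed beside each bar. All cap genes have at least 1 site, 8 core genes have 0, and PSME4 stands far above the rest with 113.

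The cap held more sites per gene than the core. A site was listed in all 21 cap genes and in 11 of the 19 core genes, against 38.0% of all protein-coding genes. The median was 14 sites per cap gene, with quartiles of 7 and 18 and a range of 1 to 28. The median was 3 sites per core gene, with quartiles of 0 and 8.5 and a range of 0 to 18. Together the cap genes had 278 sites on 528.9 kb and the core genes 99 sites on 487.3 kb, which is 0.526 against 0.203 sites per kb. Of the core length, PSMA1, PSMA8 and PSMA6, all without a site, spanned 138.8, 59.5 and 38.9 kb. The median per gene was 0.743 sites per kb in the cap and 0.174 in the core. The ranges overlapped. The cap genes PSMD11, PSMC2, PSMD13, PSMD2 and PSMD12 had more sites than any core gene, while 8 core genes had fewer than any cap gene. No test was made, because all sites come from 1 merged list and genes are not replicates.

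Much of this contrast lay in the core genes without a site. Over genes with a site, the median was 14 sites in the cap and 8 in the core, and 0.743 against 0.657 sites per kb. When PSMA8 and the beta subunits of the immune tissues, PSMB8 to PSMB11, were left out, the core median was 7.5 sites and the difference of the medians was 6.5 sites in place of 11. Per kb the difference of the medians was then 0.3805 in place of 0.569. Among genes that overlap no other annotated gene, 12 of the core and 10 of the cap, the medians per kb were 0.489 and 0.740, a difference of 0.252 in place of 0.569. Of these 12 core genes, 4 had no site. Over the 8 with a site the core median was 0.994 per kb, above the 0.740 of the cap.

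The contrast in number of sites was seen in each class of gene length. Under 10 kb, 4 of 8 core genes and 7 of 7 cap genes had a site, with medians of 1.5 and 7 sites. The core genes without a site in this class were PSMB8 to PSMB11. From 10 kb to 30 kb, 5 of 6 core genes and 11 of 11 cap genes had one, with medians of 11.5 and 16. At 30 kb and more, 2 of 5 core genes and 3 of 3 cap genes had one, with medians of 0 and 18. These classes are small. Over all genes of a class, the middle class, where most cap genes fall, showed the 2 sets closest together in number. Over genes with a site, the core and cap medians under 10 kb were 5 and 7 sites, or 1.17 and 1.27 per kb. In the middle class they were 12 and 16 sites, or 0.657 and 0.743 per kb. At 30 kb and more they were 8 and 18 sites, but 0.160 and 0.155 per kb.

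**Figure D2:**
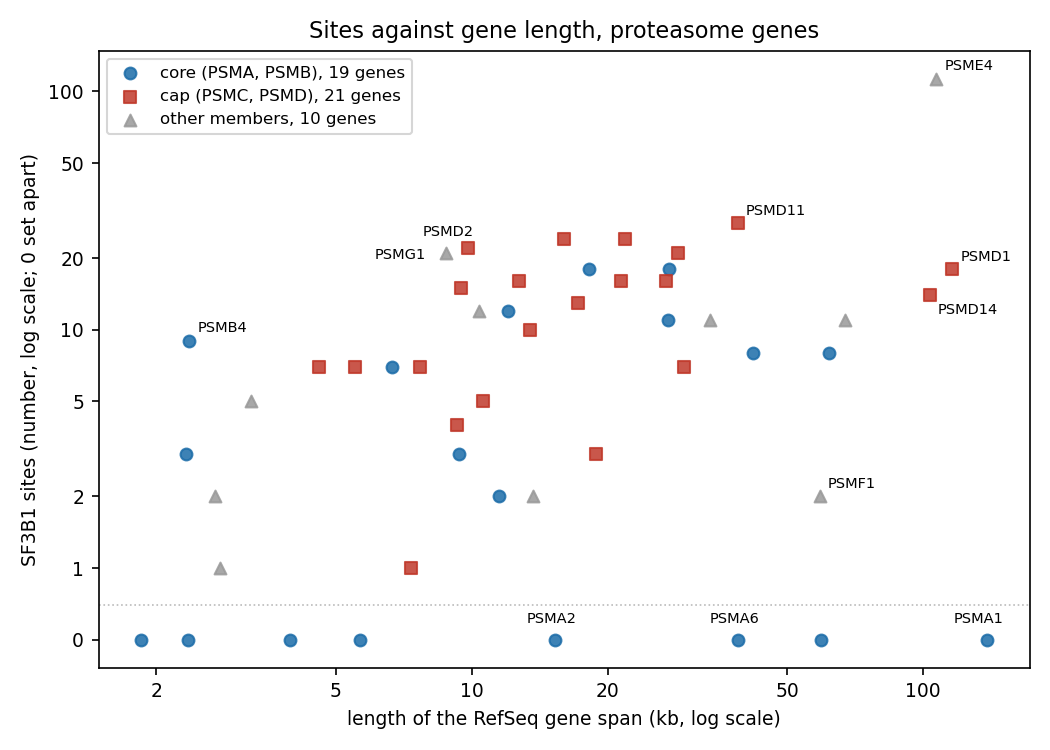
Number of sites (vertical axis, log scale, with 0 set apart below the dotted line) against the length of the gene span in kb (horizontal axis, log scale), 1 point per gene. The genes at 0 are all core genes and span lengths from 1.85 to 138.8 kb, while the cap genes, all with a site, run from 4.59 to 116.0 kb.

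The alpha ring (PSMA genes) was split. PSMA5 had 18 sites, PSMA4 had 12, PSMA3 had 11 and PSMA7 had 7. PSMA1, PSMA2, PSMA6 and PSMA8 had 0. If sites were independent counts, a count of 0 would allow up to 3 sites by counting error alone. The listed sites are reproduced calls and fall in clusters, so this limit is only rough. PSMA1, PSMA2 and PSMA6 encode standard subunits of the ring that every core contains, while PSMA8 is the form known from testis. The empty genes were not the short ones. PSMA1 spans 138.8 kb on the minus strand of chromosome 11 (14504876 to 14643662), PSMA6 spans 38.9 kb on chromosome 14 (35278558 to 35317493) and PSMA2 spans 15.3 kb on chromosome 7 (42916861 to 42932174). No site lay on the opposite strand of these 3 genes either. Relative to length, PSMA7 had 1.05 sites per kb and PSMA4 had 0.999, the 2 highest values of the ring. In PSMA4, 11 of the 12 sites lay between 78541857 and 78542547 on chromosome 15, and the last lay at 78544822, so that nothing was listed after 36.8% of the span.

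In the beta ring the genes that encode the inactive subunits and those that encode the cutting subunits both had sites. PSMB1 had 18 sites, PSMB4 had 9 and PSMB2 had 8, all of which encode subunits without protease activity, and PSMB3 of the same kind had 2. Of the cutting subunits, PSMB7 (trypsin-like) had 8, PSMB5 (chymotrypsin-like, the main target of bortezomib) had 3 and PSMB6 (caspase-like) had 3. PSMB4 was the densest member of all. Its 9 sites lay within 2.37 kb on the plus strand of chromosome 1 (151399573 to 151401937), or 3.81 sites per kb, and 99.3% of all genes with a site were less dense. PSMB6, also short, followed in the ring with 1.29 sites per kb. The 3 sites of PSMB5 formed a single run at 23026402, 23026408 and 23026413 on chromosome 14, at 94.0% to 94.1% of the gene.

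The subunits that replace the cutting ones in immune tissue had no site. PSMB8, PSMB9 and PSMB10, the interferon-inducible forms, and PSMB11, the form of the thymus, which has no introns, all stood at 0. They are short, from 1.85 kb for PSMB11 to 5.66 kb for PSMB9. PSMB4 and PSMB6, of 2.37 and 2.33 kb, had 9 and 3 sites at comparable length. Of all protein-coding genes under 10 kb, 19.6% had a site.

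The 6 ATPases of the cap, PSMC1 to PSMC6, all had sites, with a median of 7. PSMC2 had 24 sites, PSMC6 had 16, and PSMC3 and PSMC5 had 7 each. PSMC4 had 5 and PSMC1 had 3. Relative to length PSMC5 was the highest with 1.53 sites per kb, followed by PSMC2 with 1.10, and PSMC1 was the lowest with 0.159. PSMC2, on the plus strand of chromosome 7 (103347524 to 103369395), held 18 of its 24 sites in the second part of its span after the midpoint. All 24 of its sites also lie in the span of another protein-coding gene, as do 2 of the 3 sites of PSMC1, which overlaps NRDE2. PSMC2 overlaps PMPCB and SLC26A5, and the start table used for strands did not list SLC26A5. A site was called shared by position alone, whichever strand the other gene is on. A shared site can therefore lie on the strand opposite to that gene, and sharing does not show that the site belongs to it. Without the shared sites PSMC2 had 0 and PSMC1 had 1, so that 20 of the 21 cap genes kept a site and the difference of the medians between cap and core was 10 sites.

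The other cap genes, PSMD1 to PSMD14, had a median of 15.5 sites. The lid, which removes ubiquitin, is built from PSMD3, PSMD6, PSMD7, PSMD8, PSMD11, PSMD12, PSMD13 and PSMD14 besides SEM1. These 8 PSMD genes had 129 sites, from 4 in PSMD8 to 28 in PSMD11. PSMD11, on the plus strand of chromosome 17 (32444510 to 32483319), had the most sites of any cap gene. PSMD13 had 24 sites and PSMD12 had 21. PSMD14, the enzyme that cuts the ubiquitin chain, had 14 sites on 103.3 kb, or 0.136 per kb, and its partner PSMD7 had 15 sites on 9.48 kb, or 1.58 per kb. Similar numbers of sites were thus spread over very different lengths.

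The 2 large scaffolds at the base of the cap showed the same. PSMD2 had 22 sites on 9.81 kb of chromosome 3 (184299241 to 184309050), or 2.24 per kb, the highest density of the cap. PSMD1 had 18 sites on 116.0 kb of chromosome 2, or 0.155 per kb, with one stretch of 68505 nt between neighbouring sites. PSMD4, a receptor for ubiquitin chains, had 16 sites. PSMD5, PSMD9 and PSMD10 are chaperones that help to assemble the base and leave it afterwards. They had 16, 7 and 1 sites. Leaving them out gave a cap median of 15 sites among the 17 genes that remained without PSMC3IP.

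The partner gene PSMC3IP had 7 sites, or 1.27 per kb, and overlaps MLX. Leaving PSMC3IP out of the cap changed the cap median from 14 to 14.5 sites. PSME3IP1 had 11 sites, or 0.327 per kb.

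PSME4 stood apart among the activators. It encodes a large activator that caps the core in place of the ATPase cap and is known for roles in chromatin and in sperm development. On chromosome 2 (53864069 to 53970993, minus strand) it had 113 sites, more than any other member, and 24 protein-coding genes of the whole list had more. At 106.9 kb it is long, and its density of 1.06 sites per kb was exceeded by 11.3% of all genes with a site. The 113 sites formed 69 clusters when neighbours at most 60 nt apart were joined, of which 39 were single sites. No site lay in the first 20.5% of the span, and 14 lay in the last 10%. PSMD1 and PSMD14, of similar length, had 18 and 14 sites.

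The other activators had fewer. PSME3, a nuclear activator, had 12 sites, of which 5 lay in the first 10% of its span. PSME1 and PSME2, which together form an interferon-inducible activator, lie near each other on chromosome 14 and had 1 and 5 sites. Relative to length PSME2 was the highest of the group with 1.54 sites per kb, followed by PSME3 with 1.16. PSMF1, which encodes an inhibitor and regulator of the core, had only 2 sites on 59.0 kb, or 0.0339 per kb, the lowest density of the members with a site.

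The assembly chaperones of the core were unequal as well. PSMG1 had 21 sites on 8.75 kb of chromosome 21 (39174769 to 39183514), or 2.40 per kb, the second highest density of the 50. Its partner PSMG2 had 11 sites, all after 80.5% of its span. RefSeq lists 2 starts for PSMG2, and all 11 sites lay after the second. PSMG3 and PSMG4, which act as another pair, had 2 sites each, or 0.741 and 0.147 per kb. The sites of PSMG4 were 32 nt apart, at 3267552 and 3267584 on chromosome 6.

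Sites were grouped within genes in the way of the whole list. In the 50 genes, 557 sites formed 347 clusters, a mean of 1.61 sites per cluster, against 1.57 over all protein-coding genes. Single sites made up 60.2% of the clusters, against 63.2% over all. There were 136 pairs of sites 25 to 45 nt apart and 43 pairs 46 to 66 nt apart, a ratio of 3.16, against 3.59 over all protein-coding genes. The nearer span held more pairs in 26 of the 50 genes and fewer in 4, where 20.8% of all protein-coding genes held more. Genes without a site can hold no pair, and they are more frequent among all genes. Counted over genes with a site, the nearer span held more in 26 of 42 members and in 4166 of 7609 protein-coding genes. It held fewer in 4 and 274 of these. Without PSME4, the member with the most such pairs (28), the ratio was 3.00. The ratio was 4.14 in the core (29 and 7 pairs) and 3.00 in the cap (69 and 23 pairs), on few pairs.

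At longer distance, 96 pairs were 140 to 180 nt apart and 36 pairs were 60 to 100 nt apart. The ratio was 2.67, against 1.72 over all protein-coding genes. It was 1.5 in the core (12 and 8 pairs) and 2.42 in the cap (46 and 19 pairs). In the core, PSMA4 alone held 4 of the 12 pairs and 6 of the 8, so the core ratio rests largely on 1 gene. PSME4 held 28 of the 96 pairs, and without it the ratio was 2.34. The 2 sites of PSMD3 printed above, 153 nt apart, were one of these pairs, with CAGG between them and GGTAAG after the second.

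**Figure D3:**
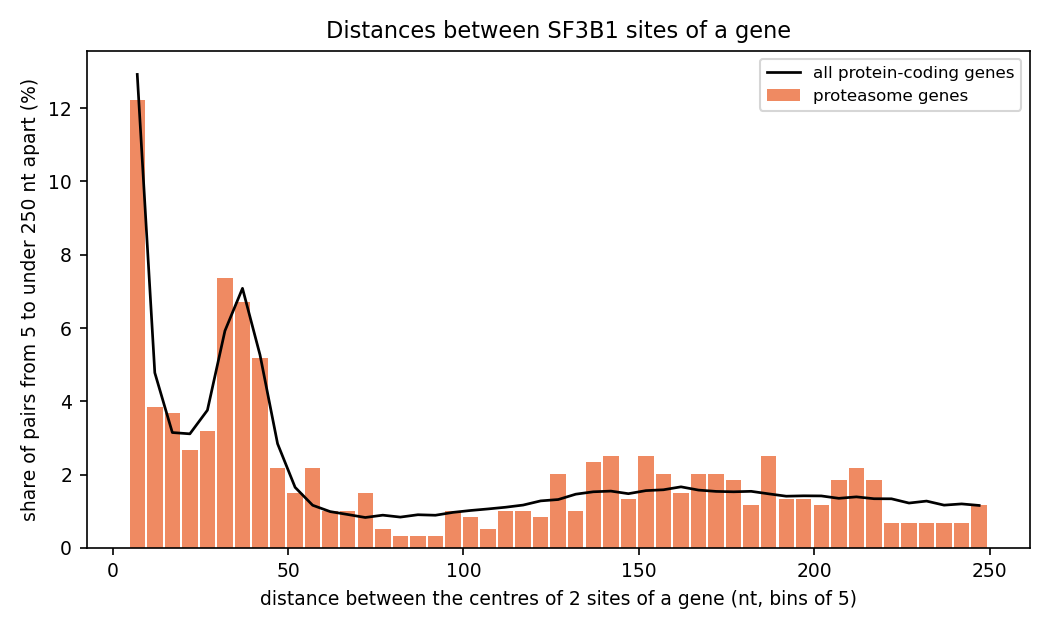
Distances between the centres of any 2 sites of a gene (horizontal axis, nt, in bins of 5) as a share of the pairs less than 250 nt apart (vertical axis, %). Bars are the 50 proteasome genes and the line is all protein-coding genes; the tallest bin of the members is 5 to 9 nt with 73 pairs, and a second rise holds 44 pairs at 30 to 34 nt and 40 at 35 to 39 nt.

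Single genes showed how such groups are arranged. PSMB2 had 8 sites in only 3 clusters, at 35603395 and 35603417, at 35631359 and 35631389, and at 35636442, 35636447, 35636472 and 35636481 on chromosome 1. The second and the third of these were paired footprints, which means 2 groups of sites whose centres are 25 to 45 nt apart. PSMD3 had the largest cluster of the members, with 7 sites from 39990018 to 39990077 on chromosome 17. PSMD2 was different: its 22 sites lay in 18 clusters, of which 15 were single sites. PSMD7 likewise had 10 single sites among 12 clusters. In all, 64 paired footprints were found in the members, 18.4 per 100 clusters, against 17.4 over all protein-coding genes. PSME4 had 13, PSMA5, PSMB1, PSMC2, PSMC6, PSMD11 and PSMD14 had 3 each, and PSMD1 had 4.

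Along the gene, sites were more frequent near the end than near the start. In the 32 members with at least 5 sites, 23 sites lay in the first 10% of the span and 61 in the last 10%, a ratio of 2.65, against 2.99 over all 4630 such protein-coding genes. The last 10% held more sites in 18 of the 32 genes, fewer in 5 and as many in 9. Over all such protein-coding genes 49.9% held more. Without PSME4 the ratio was 2.04. The core had 2 and 13 sites in the first and last 10%, and the cap had 16 and 24. With the first and last 20% of the span, the core had 24 and 22 sites, so its difference was not present there, and the cap had 25 and 63. Of the 12 sites of the core gene PSMA4, all but the last lay in its first 20%, so the 24 rests in good part on 1 gene. After the midpoint lay 46.2% of the sites in the core, 60.4% in the cap and 63.6% over all such genes.

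Genes differed in where their sites lay. All 16 sites of PSMD4, all 7 of PSMA7 and all 11 of PSMG2 were in the second part of the span. All 12 sites of PSMA4 and all 7 of PSMD9 were in the first part. PSMC6 had 6 of its 16 sites in the first 10% and PSMD1 had 5 of 18. Spans run to RefSeq's outermost limits, and exons and introns were not used here.

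**Figure D4:**
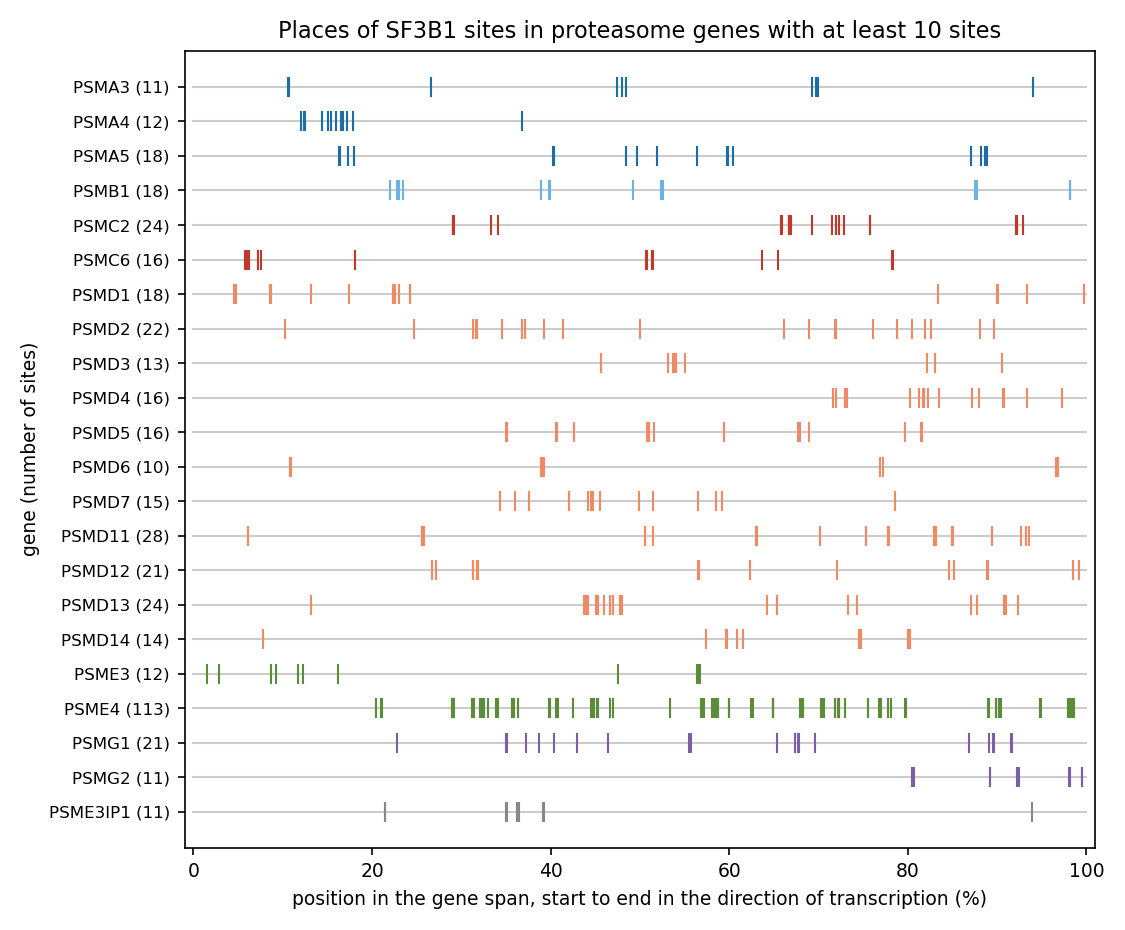
Place of each site in the 22 members with at least 10 sites, as percent of the gene span from start to end in the direction of transcription (horizontal axis), 1 row per gene with its number of sites. PSME4 is empty before 20.5%, PSMA4 after 36.8% and PSMG2 before 80.5%.

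Nearly all sites lay on the strand of their gene. For the 44 genes with a strand in RefSeq's start table, 503 of 509 sites, or 98.8% (95% Wilson interval 97.5% to 99.5%, counting error only), lay on that strand, against 97.9% over all such protein-coding genes. The 6 others lay where another gene is annotated: 3 in PSMG2 lay in CEP76, 2 in PSMA3 lay in PSMA3-AS1, and 1 in PSMD6 lay in PSMD6-AS2. For PSMA7, PSMB1, PSMB6, PSMB7, PSMD4 and PSMG3 the strand was taken from their sites, which all lay on 1 strand. RefSeq names 52 pseudogenes after 21 of the members, and none of them held a site.

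The genes that serve the proteasome without being named after it were checked through a list of 25. A site was listed in 24 of the 25, against 38.0% of all protein-coding genes, and the median was 10 sites. UBE3C, a ubiquitin ligase that works on the proteasome, had 62 sites. UCHL5 and USP14, the deubiquitinases that bind the cap, had 39 and 38, and UFD1, a cofactor of the unfolding enzyme VCP, had 38. The cap subunits outside the PSM names had fewer: SEM1 of the lid had 8 and the ubiquitin receptor ADRM1 had 4. POMP, which matures the core, had 9 sites. NFE2L1, the transcription factor that raises proteasome genes when the protease is blocked, had 4. Only UBQLN2, a shuttle protein whose gene has no introns, had 0.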

How the data were processed

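The list of binding sites was deposited by the authors in BED form. Per the file headers, its sites are merged, 5 nt wide and reproduced by all replicates of either condition. The submitters' processing notes name STAR 2.6.1b and 2.7.3a, UMI-tools 1.0.0, bedtools 2.27.1 and FastQC 0.11.8, and builds GRCh38.p10 and GRCh38.p12, with no roles. The site caller is not given in the sources used here. Every score the authors deposited was 0, which left no ranking of sites.

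Positions were made 1-based, and a site was counted in a gene when its centre lay in the RefSeq span (GRCh38.p14), on the gene's strand. The strand came from RefSeq's start table, and otherwise from the strand with more sites. Counts per kb use the span. The members and lists were chosen with earlier results of these data known, including the distance spans. Named genes are, per group, the 3 with the most sites, the 2 with the most per kb and all at 0; other genes named were chosen after their values were seen. No test over samples could be made. On simulated sites, all of 2000 genes got their planted count back, and all of 200 planted pairs were found. The planted sites check the counting only. In the data, 21 members overlap an annotated gene and 6 took their strand from their own sites. What these features do to that recovery was not tested. A recount was taken as kept when it stayed within 1.5 times. Python 3.11.15, NumPy 2.4.6, pandas 2.3.3, SciPy 1.17.1 and matplotlib 3.10.9 were used. Some marker genes are not reported here.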

Additional observations from a re-analysis of the deposited data

How the results depend on the processing

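Of 33 recounts of 7 results, 29 stayed within 1.5 times of the value given or, for the strand, within its interval, 4 moved and 0 reversed. The cap minus core difference of median sites per gene, 11, became 6.5 without PSMA8, PSMB8, PSMB9, PSMB10 and PSMB11 and 6.0 over genes with a site. The difference of median sites per kb, 0.569, became 0.0863 over genes with a site and 0.252 over genes that overlap no annotated gene. Without PSMA8, PSMB8, PSMB9, PSMB10 and PSMB11 it was 0.3805, which was just within the limit of 1.5 times and counted as kept. In each of the 4 recounts that moved, the core genes at 0 are partly or fully left out. The cause of the change was not tested. The recounts over genes with a site, without overlapping genes, without the chaperones, without PSME4 for gene ends and without the strand, and those of the list of 25, were chosen after seeing the data. Recounts with coding length and with exons were not run, as neither was used here; bases were read at 3 sites. Replicates could not be left out. No paired analysis was possible because replicates were merged before deposit. An RNA too rare to yield a reproducible site and an RNA without contacts both give 0.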
